A study of Mus musculus with 36 samples.

Results

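Megalin and cubilin are the receptors that recover filtered protein in the kidney, and 8 genes of their uptake route were followed through 36 mouse kidney libraries. The genes were chosen by name, as the machinery that takes up filtered metallothionein: the receptors Lrp2 (megalin) and Cubn (cubilin), their partners Amn and Lrpap1, the adaptor Dab2, the endosomal genes Clcn5 and Ocrl, and the folate receptor Folr1. All 8 were found among 55536 annotated genes, and all 8 were among the 18180 genes with enough reads to test.

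Cells of the proximal tubule carry megalin and cubilin on their brush border, bind proteins that the glomerulus lets through, and draw them in by clathrin-coated pits. Acidified endosomes release the ligand, which goes on to the lysosome, while the receptors return to the surface. Metallothionein, the small protein that binds cadmium, is one such ligand, and this route is known as a way by which cadmium bound to it enters these cells.

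Kidneys came from ob/ob mice (ob), which lack functional leptin and are obese, and from normal C57BL/6 mice (b6j), and both are labelled C57BL/6 by strain. The ob mice were untreated (ob_control) or received CdCl2 at 0.5 mg/kg (ob_Cd0.5) or 2 mg/kg (ob_Cd2). The b6j mice were untreated (b6j_control) or received the same doses (b6j_Cd0.5 and b6j_Cd2). Each of the 6 groups had 6 libraries, and the labels give no route, duration, age or sex and do not say whether each library is 1 animal, so p-values measure the spread between these libraries.

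The libraries held 26783936 to 37244058 counted reads. Levels are in CPM, read counts brought to a common library size, changes are log2 ratios ± standard error (SE), and a gene was called at an adjusted p below 0.05 by edgeR's quasi-likelihood test with Benjamini-Hochberg adjustment over the 18180 genes. Cadmium left its mark on Mt1, a metallothionein gene that metals induce: it averaged 111 ± 21.2 CPM in ob_control, 2823 ± 408 CPM in ob_Cd0.5 and 4424 ± 518 CPM in ob_Cd2 (SD, n = 6 each). In b6j mice it averaged 116 ± 17.3 CPM in b6j_control, 1369 ± 253 CPM in b6j_Cd0.5 and 3073 ± 582.4 CPM in b6j_Cd2. Each of the 25 proximal tubule marker genes reached the level of 3 counts in at least 1 library of every group.

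A single library stood apart, ob_Cd2 replicate 5. Its proximal tubule markers summed to 5924 CPM, against 18856 to 25969 CPM in the other 5 ob_Cd2 libraries, and 24 of the 25 markers were below all 5. Slc34a1, the phosphate transporter of the proximal tubule, was at 16.6 CPM there. Its tubular injury markers summed to 16563 CPM, against 2199 to 3953 CPM in the other 5, with 9 of 10 above them. The calls of members that its group enters, and the counts over gene lists at 2 mg/kg, are given over all 36 libraries and without it.

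The sequences just upstream of some members are shown because cadmium is known to act on genes through metal response elements, and the windows below are those of the members called against control in at least 1 dosed group, of megalin, the second of Dab2, which held the most metal response matches among the members, and of Mt1 for comparison. They are RefSeq windows of GRCm38.p6, from 250 bases before to 50 bases after a transcript start, read 5′ to 3′ on the gene's strand. Of the 8 members 7 matched the table of windows, and Dab2 and Clcn5 had 2 windows each. Folr1 had none, so it is not shown although it was called in ob mice at 2 mg/kg. Capitals mark matches, on either strand, to a metal response core (TGCACNC or TGCGCNC), an antioxidant response core (TGACNNNGC), an HNF1 core (GTTAAT) or an E-box (CACGTG).
Lrp2, chr2:69585980-69586279, minus strand: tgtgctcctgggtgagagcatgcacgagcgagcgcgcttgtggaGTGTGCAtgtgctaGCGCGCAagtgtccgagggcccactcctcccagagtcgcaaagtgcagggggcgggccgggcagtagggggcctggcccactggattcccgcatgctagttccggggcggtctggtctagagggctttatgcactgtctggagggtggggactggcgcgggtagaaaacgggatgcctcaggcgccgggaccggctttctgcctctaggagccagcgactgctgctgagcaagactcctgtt
Amn, chr12:111270846-111271145, plus strand: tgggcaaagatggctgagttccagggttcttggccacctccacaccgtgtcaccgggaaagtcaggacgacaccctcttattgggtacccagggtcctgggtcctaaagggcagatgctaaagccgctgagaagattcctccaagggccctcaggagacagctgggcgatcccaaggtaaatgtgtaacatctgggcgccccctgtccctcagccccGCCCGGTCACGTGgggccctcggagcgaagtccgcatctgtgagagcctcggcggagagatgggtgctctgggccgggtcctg
Dab2 window 2, chr15:6386498-6386797, plus strand: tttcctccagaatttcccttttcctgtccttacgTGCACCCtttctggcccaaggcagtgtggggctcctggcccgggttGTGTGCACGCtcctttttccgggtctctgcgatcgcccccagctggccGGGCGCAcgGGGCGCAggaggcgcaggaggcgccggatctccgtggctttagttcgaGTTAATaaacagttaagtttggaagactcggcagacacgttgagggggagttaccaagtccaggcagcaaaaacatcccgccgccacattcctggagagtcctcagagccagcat
Clcn5 window 1, chrX:7319309-7319608, minus strand: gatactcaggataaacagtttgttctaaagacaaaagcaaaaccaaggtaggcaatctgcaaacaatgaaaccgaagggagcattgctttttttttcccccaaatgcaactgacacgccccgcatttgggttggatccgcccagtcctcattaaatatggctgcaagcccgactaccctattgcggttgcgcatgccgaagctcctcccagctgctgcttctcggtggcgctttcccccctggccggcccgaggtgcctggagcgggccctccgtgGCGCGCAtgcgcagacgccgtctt
Clcn5 window 2, chrX:7188665-7188964, minus strand: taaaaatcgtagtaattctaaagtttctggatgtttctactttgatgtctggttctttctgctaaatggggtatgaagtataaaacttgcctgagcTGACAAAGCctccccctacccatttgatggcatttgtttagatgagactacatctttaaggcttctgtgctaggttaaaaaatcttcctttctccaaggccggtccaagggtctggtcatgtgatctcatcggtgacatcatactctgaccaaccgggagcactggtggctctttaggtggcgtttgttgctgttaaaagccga
Lrpap1, chr5:35105650-35105949, minus strand: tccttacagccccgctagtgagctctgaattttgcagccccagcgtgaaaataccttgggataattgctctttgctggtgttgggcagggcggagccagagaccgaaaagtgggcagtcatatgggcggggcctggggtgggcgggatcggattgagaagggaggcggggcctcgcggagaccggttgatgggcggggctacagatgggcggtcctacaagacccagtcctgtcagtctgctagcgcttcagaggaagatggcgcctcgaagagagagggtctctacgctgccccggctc
Ocrl, chrX:47912206-47912505, plus strand: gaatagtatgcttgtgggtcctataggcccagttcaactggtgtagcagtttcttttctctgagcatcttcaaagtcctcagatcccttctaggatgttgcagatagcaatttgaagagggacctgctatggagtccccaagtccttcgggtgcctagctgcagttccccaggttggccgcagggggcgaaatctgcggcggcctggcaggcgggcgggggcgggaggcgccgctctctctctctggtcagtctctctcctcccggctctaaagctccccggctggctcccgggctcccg
Mt1, chr8:94178839-94179138, plus strand: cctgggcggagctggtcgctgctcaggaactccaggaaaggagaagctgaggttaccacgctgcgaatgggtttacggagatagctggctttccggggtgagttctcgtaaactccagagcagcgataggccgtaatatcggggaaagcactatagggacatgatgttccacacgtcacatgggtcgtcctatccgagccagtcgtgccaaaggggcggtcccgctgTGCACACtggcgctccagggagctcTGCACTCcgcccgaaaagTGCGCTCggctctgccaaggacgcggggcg

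The metal response core had 5 matches in Dab2 window 2, 3 in the Mt1 window, 2 in the Lrp2 window and 1 in Clcn5 window 1. Of 32851 windows of this length, 25.7% held at least 1, and the share with more than 1 was not counted. In Dab2 window 2 some matches on opposite strands overlapped and were counted apart. The antioxidant core was found in 12.4% of all windows, and among those shown it lay in the Amn window and in Clcn5 window 2. In the Amn window it overlapped an E-box, which 7.2% of all windows held. Dab2 window 2 also held 1 HNF1 core, which 7.1% of all windows held. The windows of Lrpap1, Ocrl and Cubn and the first of Dab2 held none of these letters. A match is a description of the letters only.

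Per unit of transcript length (RPKM, CPM per kilobase), the members differed widely in level. In untreated kidneys Folr1 stood highest, at 169 ± 9.48 RPKM in ob_control and 179.9 ± 14.9 RPKM in b6j_control. Lrp2 followed, at 141 ± 11.6 RPKM in ob_control and 172 ± 11.5 RPKM in b6j_control (SD, n = 6 each). In b6j_control the gap between Folr1 and Lrp2 was smaller than either SD. Lrpap1, Amn, Dab2 and Cubn came next in that order in both genotypes, and the endosomal pair lay far below: Clcn5 had 8.78 ± 0.741 RPKM in ob_control and 10.0 ± 0.468 RPKM in b6j_control, and Ocrl 2.60 ± 0.181 RPKM in ob_control and 2.57 ± 0.202 RPKM in b6j_control. At 2 mg/kg Amn stood above Lrpap1 in both genotypes: Amn had 106 ± 22.7 RPKM and Lrpap1 81.7 ± 24.1 RPKM in ob_Cd2, and Amn had 121 ± 13.3 RPKM and Lrpap1 115 ± 8.76 RPKM in b6j_Cd2. In b6j_Cd2 that gap was smaller than either SD. Lrp2 stood above Folr1 in b6j_Cd2, at 171 ± 20.4 RPKM against 164 ± 17.9 RPKM, also a gap smaller than either SD. Together the 8 genes took 0.144% of counted reads in ob_Cd2 replicate 5 and up to 0.616% in a b6j_Cd0.5 library.

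**Figure D1:**
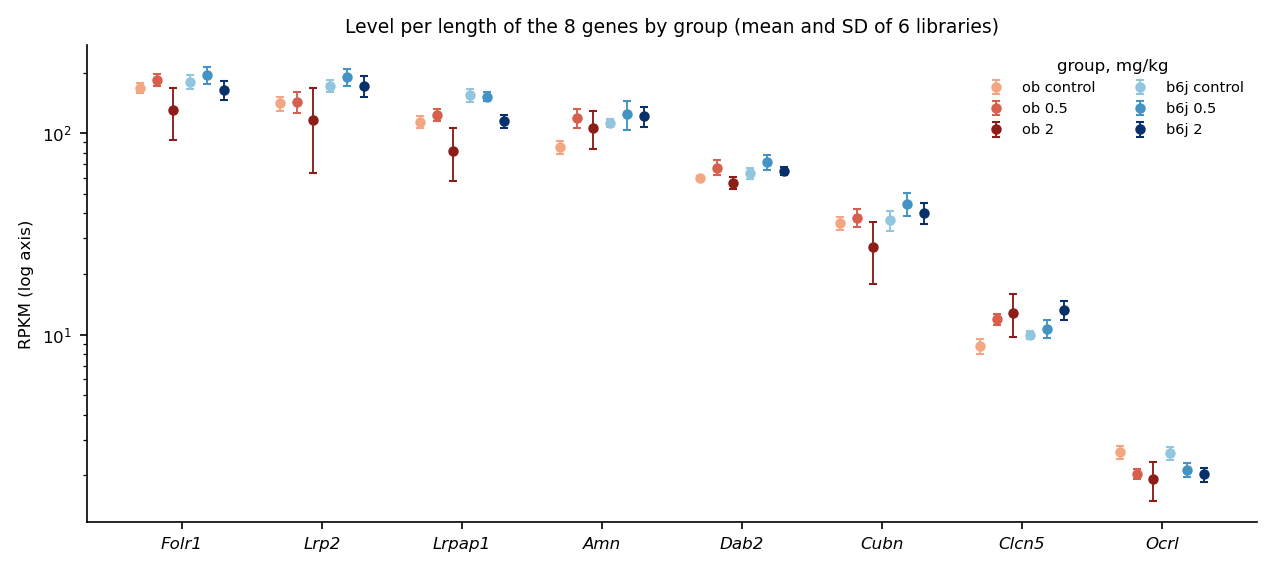
Level per length of the 8 genes (RPKM, log axis) in the 6 groups; points are means and bars SD of 6 libraries. Folr1, Lrp2, Lrpap1 and Amn lie between 81.7 and 194.5 RPKM, and Ocrl at 1.91 to 2.60 RPKM.

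Megalin, encoded by Lrp2 (ENSMUSG00000027070, GRCm38 chr2:69424340-69586065, minus strand), is the large receptor that binds many filtered proteins. Its lowest, median and highest values were 2052, 2404 and 2562 CPM in ob_control, against 2644, 2931 and 3076 CPM in b6j_control. The 2 groups did not overlap. The log2 change was -0.29 ± 0.23 with an adjusted p of 0.441 over all 36 libraries, and -0.30 ± 0.09 with an adjusted p of 0.0113 without ob_Cd2 replicate 5, a library that is in neither group but enters the shared estimate of spread. With scaling by size only and that library omitted, Lrp2 was not called (-0.16, adjusted p = 0.138). In bulk tissue, fewer cells of a type and less RNA per cell cannot be told apart.

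Lrp2 was not called at either dose in either genotype. Its lowest, median and highest values were 2005, 2416 and 2748 CPM in ob_Cd0.5 and 293, 2069 and 2711 CPM in ob_Cd2, beside the ob_control values above. In b6j mice they were 2713, 3143 and 3595 CPM at 0.5 mg/kg and 2245, 2857 and 3204 CPM at 2 mg/kg. All treated groups overlapped their controls. At 2 mg/kg the change was -0.28 ± 0.23 in ob mice (adjusted p = 0.351, 95% interval -0.75 to 0.19) and -0.01 ± 0.23 in b6j mice (adjusted p = 0.982, 95% interval -0.48 to 0.46). Without ob_Cd2 replicate 5 the change in ob mice was -0.05 ± 0.09 (adjusted p = 0.734). The change in b6j mice was then -0.02 ± 0.09 (adjusted p = 0.911), as that library also enters the shared estimate of spread there.

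Cubilin, from Cubn (ENSMUSG00000026726, GRCm38 chr2:13276338-13491813, minus strand), is the peripheral membrane receptor that binds albumin and the intrinsic factor and vitamin B12 complex, and needs amnionless to reach the surface. Untreated levels were close, at 533 ± 37.4 CPM in ob_control and 553 ± 62.7 CPM in b6j_control (SD, n = 6 each). Cubn fell between the doses in ob mice: its lowest, median and highest values were 143, 437 and 516 CPM in ob_Cd2, against 493, 560.0 and 647 CPM in ob_Cd0.5. Of the 6 ob_Cd2 libraries 4 lay below all ob_Cd0.5 libraries. The change was -0.49 ± 0.16 (adjusted p = 0.0197), and -0.30 ± 0.09 (adjusted p = 0.0132) without ob_Cd2 replicate 5. It was not called with scaling by size only (-0.39, adjusted p = 0.0574) or in a fit to the 2 compared groups alone (-0.47, adjusted p = 0.2). Against ob_control the change at 2 mg/kg was -0.39 ± 0.16, just short of a call (adjusted p = 0.0502). It was called without ob_Cd2 replicate 1 (-0.43, adjusted p = 0.047), replicate 2 (-0.48, adjusted p = 0.0216) or replicate 4 (-0.46, adjusted p = 0.0261), and was -0.21 ± 0.09 (adjusted p = 0.0651) without replicate 5. In b6j mice at 2 mg/kg it was 0.12 ± 0.16 (adjusted p = 0.643), and 0.12 ± 0.09 (adjusted p = 0.336) without ob_Cd2 replicate 5.

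Amnionless, from Amn (ENSMUSG00000021278, GRCm38 chr12:111271095-111276426, plus strand), is the membrane protein that anchors cubilin and carries it to the surface. Its lowest, median and highest values were 142, 159 and 169 CPM in ob_control, against 199, 206 and 222 CPM in b6j_control, and the groups did not overlap. It was lower in untreated ob kidneys (log2 change -0.40 ± 0.11, adjusted p = 0.00813). In ob mice it rose at both doses, by 0.48 ± 0.11 at 0.5 mg/kg (adjusted p = 0.00511) and by 0.32 ± 0.11 at 2 mg/kg (adjusted p = 0.0185). The values were 179, 220 and 245 CPM (lowest, median, highest) in ob_Cd0.5 and 132, 205 and 256 CPM in ob_Cd2. All 6 ob_Cd0.5 libraries and 5 of 6 ob_Cd2 libraries lay above every ob_control library. The sixth ob_Cd2 library, replicate 5, lay below all of them, and without it the change at 2 mg/kg was 0.42 ± 0.09 (adjusted p = 0.000472). The call at 2 mg/kg in ob mice was lost without ob_Cd2 replicate 3 (0.23, adjusted p = 0.0874) and in a fit to the 2 compared groups alone (0.33, adjusted p = 0.0876), and the call between untreated kidneys with scaling by size only (-0.27, adjusted p = 0.0539). In b6j mice the Amn values were 0.14 ± 0.11 at 0.5 mg/kg (adjusted p = 1) and 0.10 ± 0.11 at 2 mg/kg (adjusted p = 0.544).

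Lrpap1 (ENSMUSG00000029103, GRCm38 chr5:35091501-35105766, minus strand) encodes the receptor-associated protein, a chaperone of the endoplasmic reticulum that keeps megalin from binding ligands too early. Its lowest, median and highest values were 433, 466 and 507 CPM in ob_control, against 551, 645 and 700.4 CPM in b6j_control. It was lower in untreated ob kidneys by a log2 change of -0.44 ± 0.13 (adjusted p = 0.0157), and the groups did not overlap. It fell at 2 mg/kg in both genotypes, to 146, 377 and 405 CPM in ob_Cd2 and to 417, 477 and 510.1 CPM in b6j_Cd2. Every treated library lay below every control library of its genotype. The changes were -0.48 ± 0.13 in ob mice (adjusted p = 0.00319) and -0.43 ± 0.13 in b6j mice (adjusted p = 0.0129), and -0.32 ± 0.07 in ob mice without ob_Cd2 replicate 5 (adjusted p = 0.000151). At 0.5 mg/kg they were 0.11 ± 0.13 in ob mice (adjusted p = 0.784) and -0.03 ± 0.13 in b6j mice (adjusted p = 1). Between the doses, 2 against 0.5 mg/kg, Lrpap1 fell by 0.59 ± 0.13 on the log2 scale in ob mice (adjusted p = 0.000773) and by 0.40 ± 0.13 in b6j mice (adjusted p = 0.0261). The change in ob mice without ob_Cd2 replicate 5 was -0.42 ± 0.07 (adjusted p = 7.8e-06). The call between doses in b6j mice was lost without b6j_Cd0.5 replicate 6 (-0.37, adjusted p = 0.0631) or b6j_Cd2 replicate 2 (-0.37, adjusted p = 0.0614) and with scaling by size only (-0.30, adjusted p = 0.0868), which also ended the call between untreated kidneys (-0.30, adjusted p = 0.0717). Fits to the 2 compared groups alone ended the calls in ob mice at 2 mg/kg against control (-0.47, adjusted p = 0.103) and against 0.5 mg/kg (-0.57, adjusted p = 0.076).

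**Figure D2:**
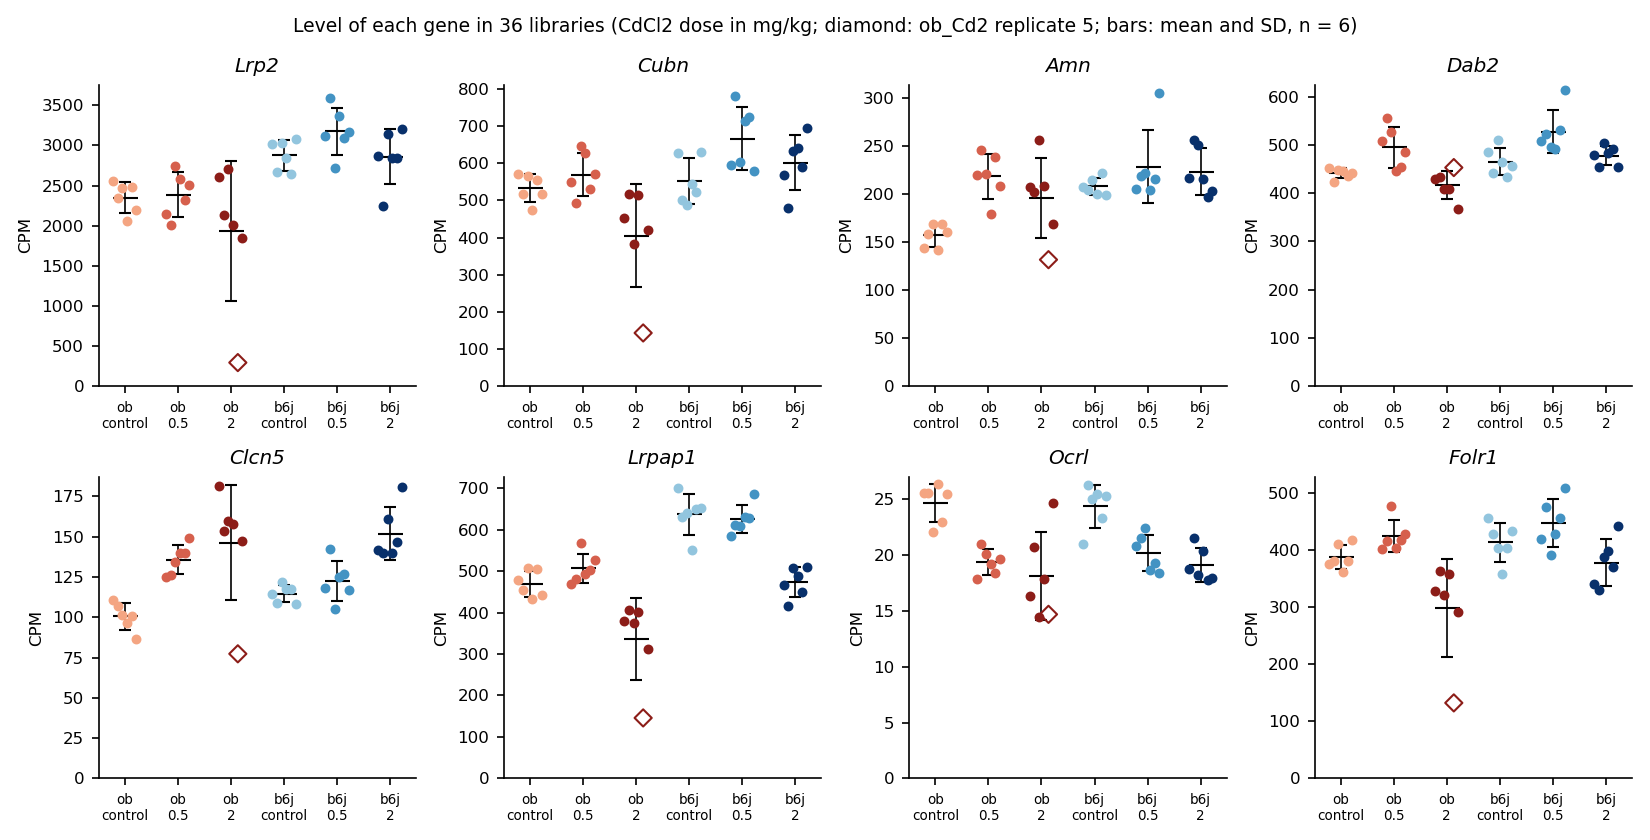
Level of each gene (CPM, linear axis from 0) in each of the 36 libraries by group and CdCl2 dose; black lines are mean and SD of 6 libraries, and the open diamond is ob_Cd2 replicate 5. Lrpap1 in both 2 mg/kg groups lies below its controls, and the diamond is the lowest point of all for 6 of the 8 genes.

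The adaptor Dab2 (ENSMUSG00000022150, GRCm38 chr15:6299788-6440712, plus strand) links the tails of megalin to clathrin and to the motor that moves the vesicles inward. It was not called against controls, at 441 ± 10.3 CPM in ob_control, 495 ± 42.4 CPM in ob_Cd0.5 and 416 ± 29.5 CPM in ob_Cd2 (SD, n = 6 each). In b6j mice it had 465 ± 28.2 CPM in b6j_control, 527 ± 44.6 CPM in b6j_Cd0.5 and 478 ± 20.5 CPM in b6j_Cd2. Between the doses it fell in ob mice, by 0.25 ± 0.06 on the log2 scale (adjusted p = 0.00232), with 5 of 6 ob_Cd2 libraries below all ob_Cd0.5 libraries, a call lost in a fit to the 2 groups alone (-0.22, adjusted p = 0.0987). In ob mice without ob_Cd2 replicate 5 it was -0.26 ± 0.06 (adjusted p = 0.000798). In b6j mice the same contrast was -0.14 ± 0.06 (adjusted p = 0.109), and without ob_Cd2 replicate 5 it was -0.15 ± 0.06 (adjusted p = 0.0437). In ob_Cd2 replicate 5 only Dab2 of the members stood above the mean of the other 5 ob_Cd2 libraries. It was at 453 CPM there and 409 ± 26.2 CPM in those 5.

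Clcn5 (ENSMUSG00000004317, GRCm38 chrX:7153810-7319358, minus strand) encodes ClC-5, the chloride and proton exchanger of endosomes whose loss in humans causes Dent disease with low-molecular-weight proteinuria. It rose at both doses in ob mice and at 2 mg/kg in b6j mice. Its lowest, median and highest values were 86.6, 101 and 111 CPM in ob_control, 125, 137 and 149 CPM in ob_Cd0.5, and 77.3, 156 and 182 CPM in ob_Cd2. In b6j mice they were 140.2, 144 and 181 CPM in b6j_Cd2, against 108, 116 and 122 CPM in b6j_control. All 6 ob_Cd0.5, 5 of 6 ob_Cd2 and all 6 b6j_Cd2 libraries lay above every control library of their genotype. The change was 0.43 ± 0.11 in ob mice at 0.5 mg/kg (adjusted p = 0.0171), 0.54 ± 0.11 in ob mice at 2 mg/kg (adjusted p = 0.000246) and 0.40 ± 0.11 in b6j mice at 2 mg/kg (adjusted p = 0.00718). At 0.5 mg/kg in b6j mice the change was 0.09 ± 0.11 (adjusted p = 1). Without ob_Cd2 replicate 5 the change in ob mice at 2 mg/kg was 0.68 ± 0.07 (adjusted p = 1.51e-09). The call at 0.5 mg/kg in ob mice was lost without ob_control replicate 6 (0.39, adjusted p = 0.0573) and when libraries were scaled by size only (0.33, adjusted p = 0.0729).

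Ocrl (ENSMUSG00000001173, GRCm38 chrX:47912387-47965868, plus strand) encodes the phosphoinositide phosphatase of endosomes whose loss in humans causes Lowe syndrome. It was the member with the fewest reads per length, and its direction at 2 mg/kg was opposite to that of Clcn5. Its lowest, median and highest values were 22.1, 25.5 and 26.4 CPM in ob_control, 17.9, 19.5 and 21.0 CPM in ob_Cd0.5, and 14.5, 17.1 and 24.7 CPM in ob_Cd2. In b6j mice they were 17.8, 18.5 and 21.5 CPM in b6j_Cd2, against 21.0, 25.1 and 26.3 CPM in b6j_control. All 6 ob_Cd0.5 libraries, 5 of 6 ob_Cd2 libraries and 5 of 6 b6j_Cd2 libraries lay below every control library of their genotype. Ocrl fell by 0.35 ± 0.09 on the log2 scale in ob mice at 0.5 mg/kg (adjusted p = 0.0198), by 0.45 ± 0.09 in ob mice at 2 mg/kg (adjusted p = 0.00023) and by 0.35 ± 0.09 in b6j mice at 2 mg/kg (adjusted p = 0.00477). In ob mice at 2 mg/kg the change without ob_Cd2 replicate 5 was -0.39 ± 0.09 (adjusted p = 0.000647). At 0.5 mg/kg in b6j mice the change was -0.27 ± 0.09 and was not called (adjusted p = 0.399). The call in ob mice at 0.5 mg/kg was lost without ob_Cd0.5 replicate 1 (-0.33, adjusted p = 0.0537), and that in b6j mice at 2 mg/kg with scaling by size only (-0.25, adjusted p = 0.0774).

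Folr1 (ENSMUSG00000001827, GRCm38 chr7:101858331-101870788, minus strand) encodes a folate receptor held by a lipid anchor on the brush border, where it recovers folate from the filtrate. It fell at 2 mg/kg in ob mice: its lowest, median and highest values were 132, 325 and 363 CPM in ob_Cd2, against 360.4, 381 and 417 CPM in ob_control, and 5 of 6 ob_Cd2 libraries lay below every ob_control library. The change was -0.37 ± 0.13 (adjusted p = 0.0208), and -0.22 ± 0.07 (adjusted p = 0.015) without ob_Cd2 replicate 5. Between the doses in ob mice it was -0.51 ± 0.13 (adjusted p = 0.00356), with all 6 ob_Cd2 libraries below all ob_Cd0.5 libraries, and -0.34 ± 0.07 (adjusted p = 0.000476) without replicate 5. In b6j mice at 2 mg/kg the change was -0.13 ± 0.13 (adjusted p = 0.522), and -0.14 ± 0.07 (adjusted p = 0.123) without ob_Cd2 replicate 5. In fits to the 2 compared groups alone neither call held (-0.36, adjusted p = 0.187 against control, and -0.48, adjusted p = 0.111 between the doses). An overlapping gene on the other strand, Anapc15, had 0.931% as many reads as Folr1.

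Counted over the members, 2 of 8 were called between untreated ob and b6j kidneys (Amn and Lrpap1, both lower in ob), where 15.5% of all tested genes were called. At 0.5 mg/kg 3 of 8 were called in ob mice (Amn, Clcn5 and Ocrl), beside 4.28% of all genes, and 0 of 8 in b6j mice, beside 0.325%. In b6j mice at that dose 2 of the 8 had an unadjusted p under 0.05, beside 1057 of 18180 tested genes. DESeq2 and limma-voom called 0 of the 8. At 2 mg/kg 5 of 8 were called in ob mice, beside 38.4% of all genes, and 3 of 8 in b6j mice, beside 23.7%. Between the doses, 4 of 8 were called in ob mice, beside 29.7%, and 1 of 8 in b6j mice, beside 17.3%. Clcn5, Lrpap1 and Ocrl were called at 2 mg/kg in both genotypes, in the same direction in each. The share of all genes called in both genotypes in the same direction was not counted. Without ob_Cd2 replicate 5, 4 of 8 were called between untreated kidneys (Lrp2 and Clcn5 in addition, beside 26% of all genes) and 4 of 8 between the doses in b6j mice (Dab2, Clcn5 and Folr1 in addition, beside 28.7%). Clcn5 between the doses in b6j mice, at 0.31 ± 0.11 (adjusted p = 0.0504), was also called without ob_Cd2 replicate 1 (0.31, adjusted p = 0.0433) or b6j_Cd0.5 replicate 2 (0.36, adjusted p = 0.0329). Between the doses in ob mice 5 of 8 were called without ob_Cd2 replicate 5, Clcn5 in addition, beside 27.6%. The other counts without it were 3 of 8 in ob mice at 0.5 mg/kg, beside 9.68% of all genes, 5 of 8 in ob mice at 2 mg/kg, beside 38%, 0 of 8 in b6j mice at 0.5 mg/kg, beside 0.854%, and 3 of 8 in b6j mice at 2 mg/kg, beside 34.8%.

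Markers of other cells also differed between untreated ob and b6j kidneys, where Amn and Lrpap1 were called. Of 8 podocyte markers 7 were higher in ob_control (median log2 change 0.61, all genes 0.03), of 8 endothelial markers 5 (median 0.41) and of 7 fibroblast and pericyte markers 3 (median 0.42), and 0 were lower. The counts without ob_Cd2 replicate 5 were 8 podocyte, 7 endothelial and 5 fibroblast and pericyte markers. Of 25 proximal tubule markers, 3 were higher and 6 lower in ob_control (median 0.00), and 8 were higher and 9 lower without that library. Their summed level was 27648 to 33316 CPM in ob_control, against 33914 to 39712 CPM in b6j_control, without overlap. The part of these differences in those of Amn, Lrpap1 and Lrp2 was not tested.

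**Figure D3:**
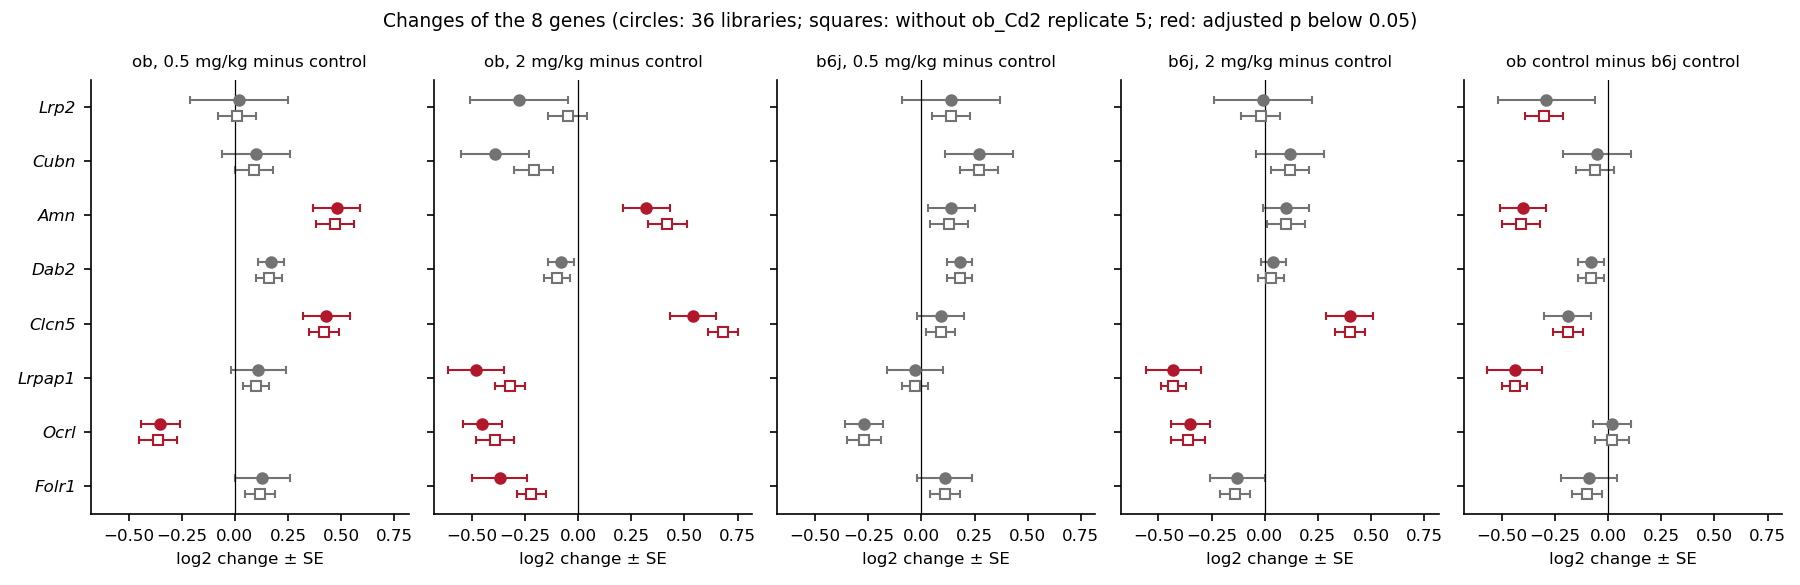
Log2 change of the 8 genes ± SE in 5 comparisons; circles are the fit to 36 libraries, squares the fit without ob_Cd2 replicate 5, and red marks an adjusted p below 0.05. Clcn5 lies right of 0 and Lrpap1 and Ocrl left of 0 at 2 mg/kg in both genotypes.

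Whether the genotypes differed in their response was tested directly, as the change in ob mice minus the change in b6j mice. At 0.5 mg/kg edgeR called 0 of 8 members, beside 0.385% of all genes. An unadjusted p under 0.05 was found for 2 of the 8, beside 1455 of 18180 tested genes. These 2 were Amn with a difference of 0.34 ± 0.15 (adjusted p = 0.56) and Clcn5 with 0.34 ± 0.16 (adjusted p = 0.59). At 2 mg/kg edgeR called 0 of 8, beside 2.07% of all genes. Cubn alone of the 8 had an unadjusted p under 0.05, beside 3095 of 18180 tested genes. Its difference was -0.52 ± 0.23 (adjusted p = 0.233). Without ob_Cd2 replicate 5 the difference of Cubn was -0.33 ± 0.13 (adjusted p = 0.144). That of Amn was then 0.32 ± 0.13 (adjusted p = 0.168) and that of Clcn5 0.28 ± 0.10 (adjusted p = 0.107). Again 0 of 8 were called, beside 4.12% of all genes. DESeq2 called 0 members for either dose, and limma-voom called 2 at 0.5 mg/kg (Amn and Clcn5) and 0 at 2 mg/kg. The calls of Amn in ob and not in b6j mice therefore do not show that the genotypes differ in it.

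Ordered by group mean, Lrp2 ran from b6j_Cd0.5 (3176 CPM) through b6j_control (2879), b6j_Cd2 (2858), ob_Cd0.5 (2384) and ob_control (2349) to ob_Cd2 (1934). The gaps between b6j_control and b6j_Cd2, between ob_Cd0.5 and ob_control and between ob_control and ob_Cd2 were smaller than the larger SD of each pair. For Lrpap1 the order was b6j_control, b6j_Cd0.5, ob_Cd0.5, b6j_Cd2, ob_control and ob_Cd2, and neighbours were apart without overlap only between b6j_Cd0.5 and ob_Cd0.5 and between ob_control and ob_Cd2. For Clcn5 the highest were b6j_Cd2 and ob_Cd2 and the lowest ob_control. For Ocrl both controls came first, at 24.7 CPM in ob_control and 24.4 CPM in b6j_control, and the 4 treated groups lay between 18.1 and 20.2 CPM, with neighbours among them closer than their SD. For Cubn, Amn, Dab2 and Folr1 no gap between neighbours exceeded the larger SD over all 36 libraries. Without ob_Cd2 replicate 5, ob_Cd2 averaged 2262 ± 379 CPM for Lrp2, 458 ± 58.8 for Cubn and 209 ± 30.9 for Amn. For Dab2 it averaged 409 ± 26.2 CPM and for Folr1 332 ± 29.4 CPM (SD, n = 5). A gap then exceeded the larger SD between ob_control and ob_Cd2 for Cubn and Dab2. The same held between b6j_control and ob_control for Amn and between b6j_Cd2 and ob_Cd2 for Folr1.

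The rest of the route was followed with gene lists, whose counts stand beside the shares of all genes called: 4.28% in ob mice at 0.5 mg/kg, 38.4% in ob mice at 2 mg/kg and 23.7% in b6j mice at 2 mg/kg. Leaving out ob_Cd2 replicate 5, these shares were 9.68%, 38% and 34.8% in the same order. Of 14 lysosomal proteolysis genes, 7 rose and 0 fell in ob mice at 0.5 mg/kg (median log2 change 0.29, all genes -0.01), 8 rose and 2 fell in ob mice at 2 mg/kg (median 0.52, all genes 0.01), and 8 rose and 0 fell in b6j mice at 2 mg/kg (median 0.31, all genes 0.02). Leaving out ob_Cd2 replicate 5 gave 8 higher and 0 lower in ob mice at 0.5 mg/kg, 8 higher and 2 lower in ob mice at 2 mg/kg, and 9 higher and 1 lower in b6j mice at 2 mg/kg. Ctsd, a cathepsin protease of the lysosome, rose by 1.58 ± 0.13 in ob mice (adjusted p = 2.4e-11; 1.34 without that library) and by 0.91 ± 0.13 in b6j mice (adjusted p = 2.69e-06) at 2 mg/kg. The lysosomal membrane gene Lamp1 rose by 0.49 ± 0.05 in ob mice (adjusted p = 1.88e-09; 0.51 without it) and by 0.31 ± 0.05 in b6j mice (adjusted p = 1.58e-05).

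Of 23 genes of endosome acidification, mostly subunits of the vacuolar proton pump, 6 rose and 5 fell in ob mice at 2 mg/kg, and 3 rose and 7 fell in b6j mice at 2 mg/kg. When ob_Cd2 replicate 5 was omitted, 6 were higher and 6 lower in ob mice, and 3 higher and 9 lower in b6j mice. Atp6ap2, an accessory subunit of that pump, rose by 0.32 ± 0.05 in ob mice (adjusted p = 4.49e-06) and by 0.29 ± 0.05 in b6j mice (adjusted p = 4.3e-05), and the pump subunit gene Atp6v1e1 fell by 0.36 ± 0.06 in ob mice (adjusted p = 7.12e-06) and by 0.28 ± 0.06 in b6j mice (adjusted p = 0.000319). Of 27 genes of phosphoinositide turnover and endosome sorting, 7 rose and 10 fell in ob mice at 2 mg/kg, and 1 rose and 5 fell in b6j mice. Without that library, 5 were higher and 11 lower in ob mice, and 2 higher and 7 lower in b6j mice. Inpp5b, the phosphatase most like Ocrl, fell by 0.67 ± 0.10 in ob mice (adjusted p = 1.27e-06) and by 0.72 ± 0.10 in b6j mice (adjusted p = 9.21e-07). Without that library the changes in ob mice were 0.32 for Atp6ap2, -0.31 for Atp6v1e1 and -0.60 for Inpp5b.

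Of 20 clathrin and adaptor genes, 7 rose and 3 fell in ob mice at 2 mg/kg, and 2 rose and 2 fell in b6j mice. When ob_Cd2 replicate 5 was omitted, 7 were higher and 3 lower in ob mice, and 4 higher and 3 lower in b6j mice. Of 15 other endocytic receptors and carriers, 3 rose and 3 fell in ob mice at 2 mg/kg, and 3 rose and 1 fell in b6j mice. Without that library, 3 were higher and 3 lower in ob mice, and 6 higher and 2 lower in b6j mice. Lrp8, a relative of megalin, rose by 3.06 ± 0.34 in ob mice (adjusted p = 1e-08) and by 1.46 ± 0.32 in b6j mice (adjusted p = 0.000815). Of 6 genes on other routes for metallothionein or cadmium, Mt1 and Mt2 included, 2 rose and 2 fell in ob mice at 2 mg/kg, and 2 rose and 1 fell in b6j mice, and without that library 2 were higher and 2 lower in each. Slc22a17, which encodes a receptor of the distal nephron for lipocalin, fell by 1.32 ± 0.16 in ob mice (adjusted p = 4.34e-08) and by 0.80 ± 0.16 in b6j mice (adjusted p = 2e-04). Of 10 transcription factors linked to these receptors, 0 rose and 2 fell in ob mice, and 0 rose and 3 fell in b6j mice, or 4 without that library. Vdr, the vitamin D receptor, fell by 0.61 ± 0.11 in ob mice (adjusted p = 6.31e-05) and by 0.65 ± 0.11 in b6j mice (adjusted p = 5.5e-05). Without that library the changes in ob mice were 2.68 for Lrp8, -1.13 for Slc22a17 and -0.79 for Vdr.

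Markers of the proximal tubule and of other cells were also called at 2 mg/kg. Of 25 proximal tubule markers, 15 fell in ob mice and 7 fell in b6j mice at 2 mg/kg, and 0 rose in either. The counts without ob_Cd2 replicate 5 were 15 lower in ob mice and 17 lower in b6j mice. Their summed level was 5924 to 25969 CPM in ob_Cd2 (18856 to 25969 without replicate 5), against 27648 to 33316 CPM in ob_control, and 20721 to 27754 CPM in b6j_Cd2, against 33914 to 39712 CPM in b6j_control. Tubular injury markers rose in 10 of 10 genes in ob mice and 8 of 10 in b6j mice at 2 mg/kg, and macrophage and dendritic markers rose in 7 of 10 in each, with 1 of 10 falling in ob mice. At that dose 10 of 12 thick limb and distal markers fell in ob mice and 4 of 12 in b6j mice. Endothelial markers fell in 8 of 8 in ob mice and 0 of 8 in b6j mice, and podocyte markers in 4 of 8 in ob mice and 0 of 8 in b6j mice. Fibroblast and pericyte markers rose in 2 of 7 in ob mice and 6 of 7 in b6j mice, and perirenal fat markers in 1 of 7 in ob mice and 3 of 7 in b6j mice. When ob_Cd2 replicate 5 was omitted, endothelial markers were lower in 5 of 8 in ob mice and 2 of 8 in b6j mice. Podocyte markers were lower in 6 of 8 in ob mice and 0 of 8 in b6j mice, and thick limb and distal markers in 8 of 12 in ob mice and 6 of 12 in b6j mice. Injury markers were then higher in 10 of 10 in ob mice and 9 of 10 in b6j mice, macrophage and dendritic markers in 9 of 10 in each, with 1 of 10 lower in ob mice. Fibroblast and pericyte markers were higher in 3 of 7 in ob mice and 6 of 7 in b6j mice, and fat markers in 1 of 7 in ob mice and 4 of 7 in b6j mice. As the change in ob mice minus that in b6j mice at 2 mg/kg, 4 of 8 endothelial and 3 of 8 podocyte markers were called lower. Called higher were 3 of 10 injury and 1 of 7 fat markers, and 0 in the other marker lists, beside 2.07% of all genes. Without ob_Cd2 replicate 5, 4 endothelial, 5 podocyte, 3 proximal tubule and 1 thick limb and distal marker were lower. Then 2 injury, 2 proximal tubule and 1 fat marker were higher, beside 4.12%. Whether the counts as such differed was not tested. The part of these shifts in the changes of the 8 genes was not tested.

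In ob_Cd2 replicate 5 the members were not all low by the same factor. Lrp2 was 7.73-fold lower than the mean of the other 5 ob_Cd2 libraries, Cubn 3.20-fold, Lrpap1 2.57-fold, Folr1 2.51-fold, Clcn5 2.07-fold, Amn 1.58-fold and Ocrl 1.28-fold lower. Lrp2, Cubn, Amn, Clcn5, Lrpap1 and Folr1 were each at their lowest of all 36 libraries there, and Dab2 and Ocrl were not. Ocrl was at 14.7 CPM there, within the 14.5 to 24.7 CPM of the other 5 ob_Cd2 libraries.

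**Figure D4:**
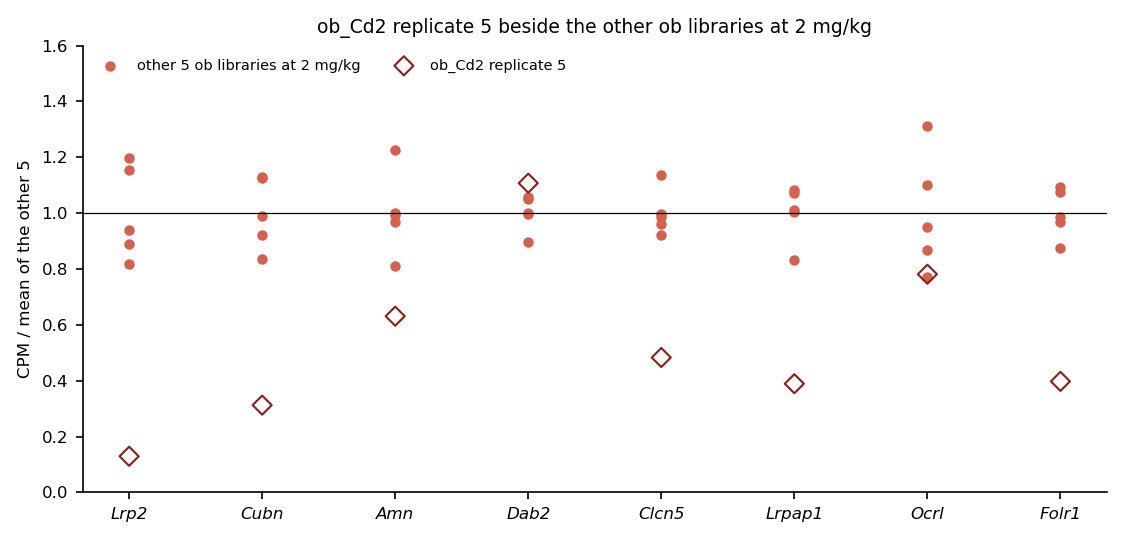
CPM of each gene in ob_Cd2 replicate 5 (open diamonds) and in the other 5 ob_Cd2 libraries (points), divided by the mean of those 5. Lrp2 lies lowest, at 0.129 of that mean, and Dab2 at 1.11.

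Within groups, members rose and fell with Lrp2 to different degrees. Over 36 libraries the log2 deviation of Lrp2 from its group mean correlated with those of Lrpap1 (Pearson r = 0.93, Spearman rho = 0.72), Cubn (0.90 and 0.80), Clcn5 (0.90 and 0.74) and Folr1 (0.90 and 0.64). Adjusted over the 7 relations, the permutation p of r was 0.00056 for Lrpap1, 0.00205 for Cubn, 7e-05 for Clcn5 and 0.00262 for Folr1. Much of this rested on ob_Cd2 replicate 5: without it (n = 35) r was 0.57 for Lrpap1, 0.50 for Cubn, 0.66 for Clcn5 and 0.43 for Folr1, with adjusted permutation p of 0.00499, 0.0149, 0.00077 and 0.0298. Spearman rho was then 0.51, 0.49, 0.64 and 0.34 in that order, with adjusted permutation p of 0.0141, 0.0164, 0.00168 and 0.0934. By rank the relation with Folr1 was thus not under 0.05. Leaving out a further 2 libraries farthest from the median of Lrp2 gave r of 0.41, 0.39, 0.64 and 0.28. Ocrl had r = 0.16 over 36 libraries and -0.59 (rho = -0.49) over 35, with an adjusted permutation p of 0.00499. Amn and Dab2 had r of 0.55 and -0.20 over 36 libraries and of 0.03 and 0.18 over 35.

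**Figure D5:**
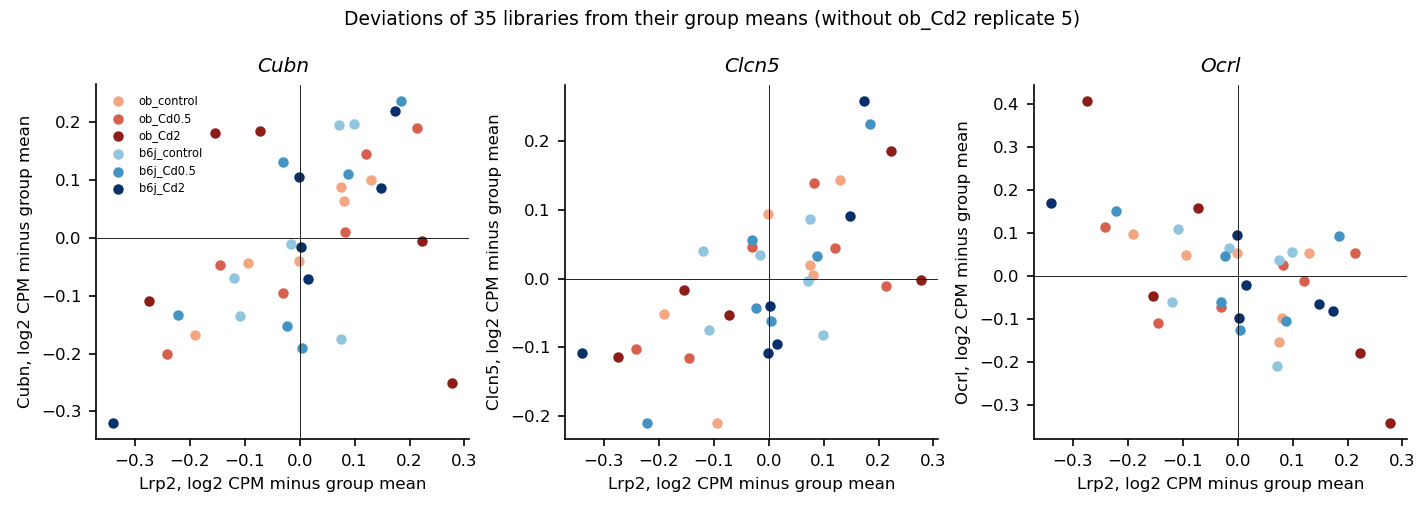
Deviation of Cubn, Clcn5 and Ocrl from their group means against that of Lrp2 (log2 CPM) in 35 libraries, without ob_Cd2 replicate 5, coloured by group. Clcn5 rises with Lrp2 (r = 0.66) and Ocrl falls with it (r = -0.59).

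Likeness was measured by Pearson r of log2 CPM against the 11031 genes averaging 5 CPM or more. Group means were left in, so differences between the groups enter r, and each gene named is the highest of these. The genes that ran closest to a member over 36 libraries were Pmpcb for Lrpap1 (r = 0.985), Gcsh for Folr1 (r = 0.965), Ugt3a2 for Lrp2 (r = 0.955), Fmo2 for Cubn (r = 0.947), Slc25a39 for Amn (r = 0.908), Zmym6 for Clcn5 (r = 0.885), Plekhn1 for Ocrl (r = 0.806) and Ttc7b for Dab2 (r = 0.768). Without ob_Cd2 replicate 5 the closest were Lactb for Lrpap1 (r = 0.969), Gcsh for Folr1 (r = 0.923), Eps8 for Lrp2 (r = 0.892), Fmo2 for Cubn (r = 0.844), Slc25a1 for Amn (r = 0.918), Igf2r for Clcn5 (r = 0.914), Plekhn1 for Ocrl (r = 0.784) and Neu1 for Dab2 (r = 0.799).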

How the data were processed

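Kidney RNA of 36 mouse libraries was measured by sequencing. Per the submitters' processing notes, bcl2fastq, Trimmomatic, FastQC and STAR were used with the GRCm38 build. Per the file headers, the deposited values are raw read counts per gene from featureCounts 1.4.6-p2 on the Ensembl 96 annotation, with no option for strand or read pairs, so reads of overlapping genes cannot be told apart by strand. The 36 columns of a joined table were not used. Gene positions came from GENCODE M21, and all 55536 identifiers matched it.

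CPM, RPKM, log2 changes and p-values were computed here with R 4.3.3 and edgeR 4.0.16: default expression filter with a minimum count of 10 (18180 genes), TMM scaling (factors 0.892 to 1.122), 1 mean per group over 36 libraries, quasi-likelihood F test and Benjamini-Hochberg adjustment in each of 9 comparisons. The SE is the log2 change over the root of F, and 95% intervals use 30 degrees of freedom. Correlations of deviations used 100000 permutations within groups. The test was checked on simulated data. DESeq2 1.42.0, limma 3.58.1, other scalings and filters, the compared groups alone, a replicate block and each library left out were alternatives.

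The members and the 15 gene lists (202 symbols) were chosen with earlier results of these data known. Named genes are the 8 members, up to 4 genes of a list with the smallest p among those called, Mt1 and Mt2, and the closest genes by correlation. Slc34a1 was named after its values were seen. Deviations of same-numbered libraries correlated at -0.334 to 0.412, with 18 of 90 over 0.1. No pair of groups had all 6 over 0.1, and ob_Cd0.5 with b6j_Cd2 had the most, 4 of 6, so numbers were not used as pairs.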

Additional observations from a re-analysis of the deposited data

Results flagged for a closer look

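In groups of 6 libraries, 8 of 48 member and group combinations held a library far from the other 5, where chance would give about 2.4 at 1 in 20. Of these, 5 were ob_Cd2 replicate 5: Lrp2 at 293 CPM against 1850 to 2711 CPM in the other 5, Cubn at 143 CPM against 382 to 516 CPM, Clcn5 at 77.3 CPM against 148 to 182 CPM, Lrpap1 at 146 CPM against 311 to 405 CPM, and Folr1 at 132 CPM against 291 to 363 CPM. The proximal tubule markers summed to 5924 CPM in that library and its injury markers to 16563 CPM, and their part in these values was not tested.

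In b6j_Cd0.5, replicate 6 was highest for Amn, at 305 CPM against 205 to 222 CPM in the other 5, and for Dab2, at 613 CPM against 492 to 531 CPM. In ob_Cd0.5, replicate 3 was highest for Folr1, at 477 CPM against 402 to 429 CPM.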

How the results depend on the processing

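Beside the fits that only left out 1 library, 11 settings were run, among them those with ob_Cd2 replicate 5 omitted under another choice. Over these 11, 740 of 792 member changes kept their side of the threshold, 38 gained a call and 14 lost one. Over the 36 fits that left out 1 library, 2576 of 2592 did. No called change turned its direction. Members called between untreated ob and b6j kidneys (2) were 4 with limma-voom, 0 with library size only, 4 with only the compared groups and 4 with DESeq2 and ob_Cd2 replicate 5 omitted. Between the doses in b6j mice (1) they were 2 with DESeq2, 3 with limma-voom, 2 with RLE size factors, 2 with the stricter filter and 3 with only the compared groups. With ob_Cd2 replicate 5 omitted as well, they were 3 with the replicate block, 3 with DESeq2 and 2 with library size only. With only the compared groups, 2 of the 5 calls in ob mice at 2 mg/kg and 0 of the 4 between the doses in ob mice were made. At 0.5 mg/kg the interaction (0) had 2 with limma-voom, 1 with only the compared groups and 1 with DESeq2 and ob_Cd2 replicate 5 omitted. With library size only and that library omitted, b6j mice at 2 mg/kg (3) had 6 and the interaction at 2 mg/kg (0) had 2. The cause was not tested. Leaving out 1 library gave 2 to 4 members between untreated kidneys, 0 to 4 between the doses in b6j mice, 2 to 3 in ob mice at 0.5 mg/kg, 4 to 6 in ob mice at 2 mg/kg and 4 to 5 between the doses in ob mice. In that order, 2257 to 4781, 2378 to 5267, 578 to 1780, 6451 to 7366 and 4685 to 5965 of all genes were then called. The 0 in b6j mice came without b6j_Cd0.5 replicate 6 or b6j_Cd2 replicate 2, and the 4 without ob_Cd2 replicate 5. The r of Lrp2 with Ocrl was -0.59 without ob_Cd2 replicate 5. With the replicate block, Cubn was called in ob mice at 2 mg/kg (6 members in place of 5), and it changed no other call. Library size only moved the median log2 change of all genes to 0.161 between untreated kidneys, 0.119 in b6j mice at 2 mg/kg and -0.110 in ob mice at 0.5 mg/kg, against 0.026, 0.017 and -0.010. Genes called over the whole table ranged from 2191 to 5629 between untreated kidneys and from 55 to 232 in b6j mice at 0.5 mg/kg. These ranges cover neither the fits that left out 1 library nor the settings with ob_Cd2 replicate 5 omitted. The settings with ob_Cd2 replicate 5 omitted were chosen after seeing the data.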
